A study of Mus musculus with 7 samples.

Results

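This is an account of 10 genes that take up, store, export and sense iron, in mouse hearts after myocardial infarction (MI) and after sham surgery. They are the transferrin receptor gene Tfrc, the importers Slc11a2 and Slc39a14, the ferritin genes Fth1 and Ftl1, the exporter gene Slc40a1, the iron regulatory proteins Aco1 and Ireb2, the heme oxygenase gene Hmox1 and the hepcidin gene Hamp. Tfrc was chosen by its readout, because its level was lower in each MI heart, and the other 9 were added by function. All 10 were among the 56980 genes of the deposited table. RNA from myocardial tissue of 7 wild-type mice was sequenced, 1 library per mouse, with 4 sham-operated mice and 3 mice in which the left coronary artery had been ligated. They were male C57BL/6J mice, an inbred laboratory strain, bought at 8 weeks of age and kept for 1 week before surgery, and the hearts were taken 4 days after it. The sham surgery was the same operation without the ligation, and the study describes the tissue of the MI mice as ischemic without naming how it was dissected.

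Most cells take in iron as transferrin-bound iron through the transferrin receptor, and spare iron is kept inside ferritin, a shell of heavy (Fth1) and light (Ftl1) chains. Iron leaves the cell through ferroportin (Slc40a1), which the hormone hepcidin removes from the cell surface. The iron regulatory proteins encoded by Aco1 and Ireb2 bind short hairpins in messenger RNAs, the iron-responsive elements, when iron is scarce. Bound in the 3′ untranslated region (UTR) they protect the Tfrc transcript from decay, and bound in the 5′ UTR they block translation of the ferritin and ferroportin transcripts, so this control acts on the amount of Tfrc RNA and on the translation of ferritin RNA. Cardiomyocytes need iron for heme and for the iron-sulfur clusters of their mitochondria.

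The hairpins are shown because they are what sets Tfrc apart from the ferritin and ferroportin genes at the sequence level. The transcript strand was searched for a C, 5 bases, the loop CAGTGN and 5 bases pairing with the first 5, with G to U pairs allowed, in protein-coding transcripts of GENCODE M21 on GRCm38. Capitals mark the loop, and each window holds 30 bases.
Tfrc hairpin 1: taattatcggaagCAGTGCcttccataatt
Tfrc hairpin 2: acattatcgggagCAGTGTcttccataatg
Tfrc hairpin 3: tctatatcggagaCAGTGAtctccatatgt
Tfrc hairpin 4: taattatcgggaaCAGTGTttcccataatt
Fth1 hairpin: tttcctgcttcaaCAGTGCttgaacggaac
Ftl1 hairpin: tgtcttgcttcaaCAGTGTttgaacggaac
Slc40a1 hairpin: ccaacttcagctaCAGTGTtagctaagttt
The 4 windows of Tfrc lay in its 3′ UTR on the plus strand, at chr16:32631218-32631247, chr16:32631597-32631626, chr16:32631662-32631691 and chr16:32631709-32631738. The other windows lay in 5′ UTRs, at chr19:9982731-9982760 on the plus strand for Fth1, chr7:45459779-45459808 on the minus strand for Ftl1 and chr1:45925465-45925494 on the minus strand for Slc40a1. The same search matched 129 of 21045 genes in a 3′ UTR (0.613%) and 31 of 20916 in a 5′ UTR (0.148%). No match was found in Slc11a2, Aco1, Ireb2, Hmox1, Slc39a14 or Hamp, which says only that these letters were not in their annotated UTRs.

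The values are FPKM, the fragments counted on a gene relative to its length and to all fragments of the library, and the libraries held 19977712 to 23610870 fragments. One MI heart stood apart: genes of the mitochondrial genome held 26.5% to 27.4% of the fragments in the sham hearts, and 13.6%, 28.2% and 14.9% of those in MI replicates 1, 2 and 3. The summed FPKM of 6 fibroblast markers was 92.3 to 114 in the sham hearts against 2016, 182 and 1538 in the MI hearts. That of 9 macrophage markers was 198 to 251 against 1324, 239 and 1139, and that of 9 cardiomyocyte markers was 14030 to 15320 against 9329, 14110 and 9922. In these values MI replicate 2 was close to the sham hearts, except that its fibroblast sum lay above them. Among 9 erythroid markers, mostly globins, the sums were 373 to 777 against 2392, 593 and 1016. No marker of these lists was at 0 in all 7 hearts. In whole tissue, fewer cells of a type cannot be told apart from less RNA per cell.

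Tfrc was lower in every MI heart, including the one that was close to the sham hearts in these sums. Its FPKM was 17.2, 13.2, 12.4 and 16.9 in sham replicates 1 to 4 and 3.47, 3.74 and 4.56 in MI replicates 1 to 3, from 2789 to 3780 and from 738 to 1052 fragments. The means were 14.9 ± 2.50 (SD, n = 4) and 3.92 ± 0.568 (SD, n = 3), a level 3.81 times as high in the sham hearts, and the lowest sham heart stood above the highest MI heart. These values are a description, with no test, because they chose the gene. On the log2(FPKM + 1) scale the difference of MI minus sham was -1.69, and relative to the median of the 11431 tested genes, which was 0.21 higher in MI, it was -1.90. The share of tested genes in which every MI heart lay below every sham heart was 9.0%, and the choice of Tfrc placed it there.

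The size of the Tfrc difference was nearly the same in the 3 MI hearts. Against the sham mean it was -1.82, -1.74 and -1.51 on the log2 scale in MI replicates 1, 2 and 3. By the same measure 14, 3 and 22 of the 11431 tested genes were lower than Tfrc in these hearts. It thus held the 15th, the 4th and the 23rd place from the bottom. The choice of Tfrc by its lower level in each MI heart favours a low place, so these places are a description without a test. In MI replicate 2, 27 genes were lower by more than 1 and 57 higher by more than 1, compared with 311 and 1587 in MI replicate 1. Genes lower by more than 1 in all 3 MI hearts numbered 4. Besides Tfrc these were Cyp1a1, Gm22357 and Usf2-ps1, named after their values were seen. Gm22357 rested on at most 11 fragments and Usf2-ps1 on at most 36, and the sham hearts of Cyp1a1 ranged from 4.61 to 18.5 FPKM.

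**Figure D1:**
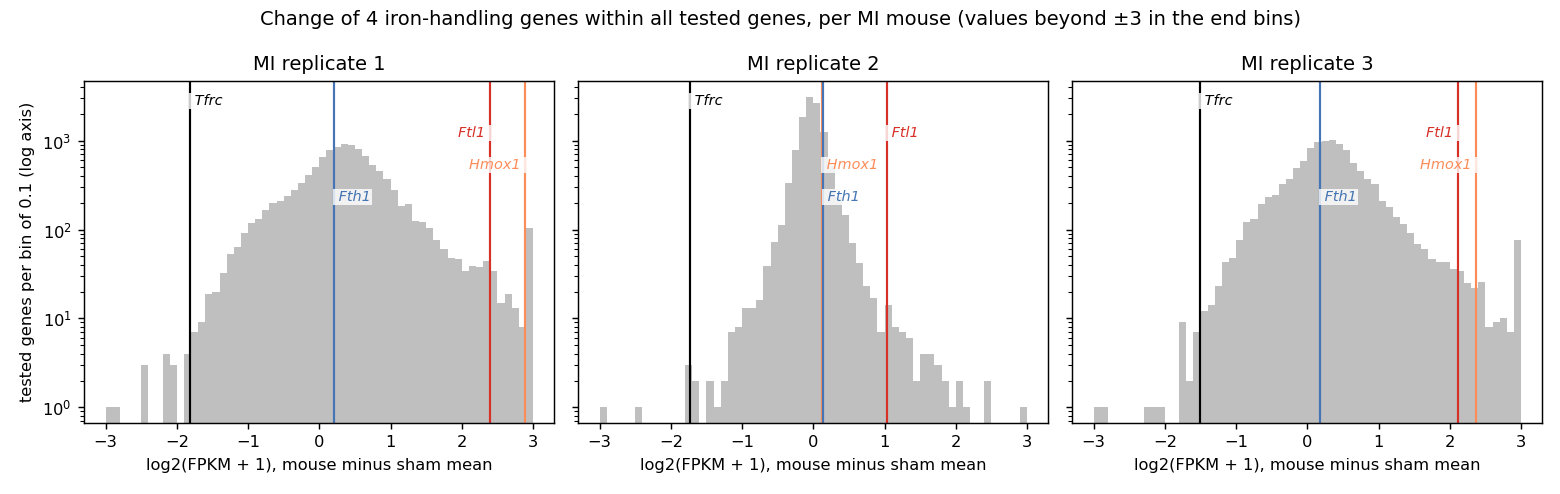
Each panel shows 1 MI heart, with the x axis giving log2(FPKM + 1) minus the mean of the 4 sham hearts and the y axis, on a log scale, the number of tested genes per bin of 0.1, values beyond 3 in either direction being put in the end bins. Vertical lines mark Tfrc, Fth1, Ftl1 and Hmox1. Tfrc sits at -1.82, -1.74 and -1.51, in the lower tail of each panel, whereas Hmox1 moves from 2.89 and 2.37 in replicates 1 and 3 to 0.12 in replicate 2, where it nearly covers Fth1 at 0.13.

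In the sham heart the order of the 10 levels in FPKM, which is per length, was Fth1 (80.4), Ftl1 (18.0), Tfrc (14.9), Aco1 (9.65), Slc39a14 (5.90), Ireb2 (4.69), Hmox1 (4.46), Slc11a2 (4.14), Slc40a1 (1.68) and Hamp (0.11). The ranges of the 4 hearts overlapped between Ftl1 and Tfrc, between Ireb2 and Hmox1 and between Hmox1 and Slc11a2, and not between the other neighbours. In the MI hearts Tfrc stood in place 8 by its mean and Hmox1 in place 3, while Fth1, Ftl1, Aco1, Slc39a14, Ireb2 and Slc40a1 kept theirs. Gene lengths behind the FPKM values differed in part from GENCODE M21, for example 9778 against 6185 bases for Tfrc, so levels of different genes are comparable only as far as the deposited lengths are right.

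**Figure D2:**
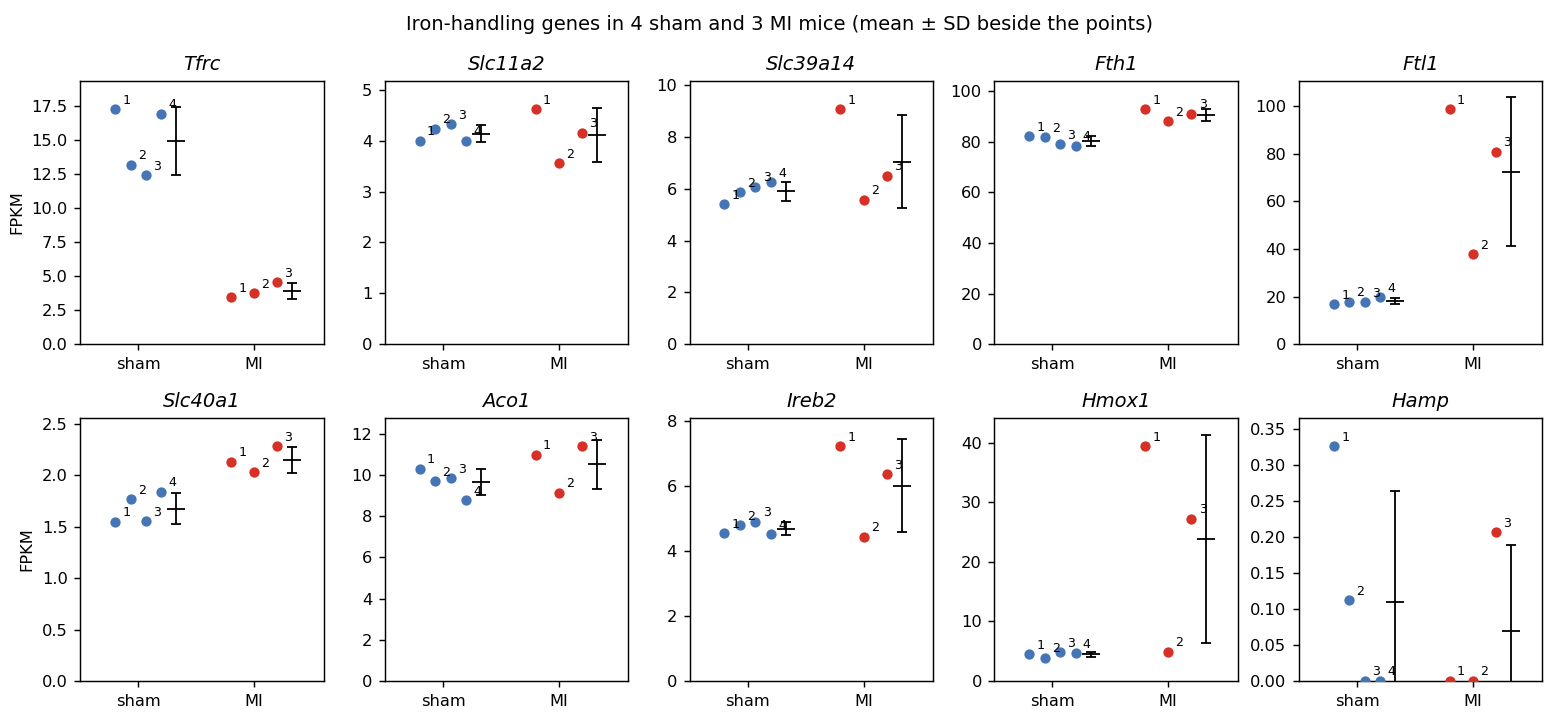
FPKM of the 10 genes, 1 panel per gene with its own y axis from 0, for 4 sham hearts (blue) and 3 MI hearts (red), with the replicate number beside each point and the mean ± SD to the right of each group. The MI points of Tfrc lie together at 3.47 to 4.56, those of Ftl1 and Hmox1 are spread from 37.8 to 98.8 and from 4.94 to 39.5, and Slc11a2 overlaps between the groups.

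Of the 8 other members that passed the filter, Ftl1 and Hmox1 were higher in MI by the criterion of an unadjusted limma p under 0.05 with a log2 fold change over 0.5, and none was lower. Over all tested genes 17.8% were higher and 4.8% lower by this criterion. Every MI heart lay above every sham heart for Slc40a1, Fth1, Ftl1 and Hmox1, against 16.1% of all tested genes, and for none of the 8 below. At a Benjamini-Hochberg adjusted p under 0.05 from limma, none of the 8 was called, beside 0.0175% of all genes higher and 0.00875% lower, while 3 of them (37.5%) had an unadjusted p under 0.05, close to the 39.3% of all tested genes that did. Without MI replicate 2, 7 of the 8 had an adjusted p under 0.05 from limma, all but Slc11a2, beside 71.7% of all tested genes. In that fit 35.1% of all tested genes were higher and 8.42% lower by the criterion.

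The 2 ferritin genes differed in how far they stood from the sham level. Ftl1, the light chain, was at 16.7, 17.9, 17.7 and 19.7 FPKM in the sham hearts and at 98.8, 37.8 and 80.9 in the MI hearts, 4.03 times as high by the means of 18.0 ± 1.22 (SD, n = 4) and 72.5 ± 31.3 (SD, n = 3). Fth1, the heavy chain that oxidises iron, was at 82.2, 81.9, 79.0 and 78.5 against 92.9, 88.1 and 91.2. All MI hearts were above all sham hearts for both genes, but Fth1 exceeded its sham mean by only a factor of 1.13. The log2 fold change was 1.85 (standard error 0.30) for Ftl1, with a limma p of 0.000383 and an adjusted p of 0.108, and 0.17 (standard error 0.09) for Fth1, with an adjusted p of 0.173. Relative to the median gene Fth1 was at -0.04, and it lay on the other side of 0 (-0.12) after median log-ratio scaling, which centres each heart on its median gene. The macrophage and fibroblast marker sums were highest in the MI hearts with the highest Ftl1, and their part was not tested. Without MI replicate 2 the adjusted limma p was 5.77e-06 for Ftl1 and 0.0136 for Fth1. In that fit 71.7% of all tested genes were under 0.05, and Fth1 was at 0.19 against 0.33 for the median gene. Across the other settings the adjusted limma p reached 0.330 for Ftl1 and 0.906 for Fth1.

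The chain ratio is read within each heart, where scaling between hearts cancels apart from the 1 added to each FPKM before the log2 was taken. Fth1 stood at 4.92, 4.57, 4.47 and 3.99 times Ftl1 in the sham hearts and at 0.941, 2.33 and 1.13 times in the MI hearts. The groups did not overlap, and the log2 ratio differed by -1.67 (exact two-sided permutation p = 0.0571 over 35 splits, the smallest that 3 against 4 mice allow, and 0.171 adjusted over 3 ratios). A p under 0.05 cannot be reached in this design. In FPKM, Ftl1 made up 16.9% to 20.04% of the ferritin sum in the sham hearts against 51.5%, 30.04% and 47.02% in the MI hearts. Ferritin RNA per Tfrc RNA, both in FPKM, was 5.74 to 7.79 in the sham hearts against 55.3, 33.7 and 37.8 in the MI hearts, a value that holds Tfrc and is given without a test.

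The values of Ftl1 are uncertain because near-identical copies of it also collected fragments. Of 6 genes whose transcripts matched Ftl1 over at least 200 bases at an identity of at least 95%, 4 reached an FPKM of 1 in some heart. The pseudogene Ftl1-ps1, 99.56% identical over 910 bases, was at 53.4, 56.0, 19.6 and 52.0 FPKM in the sham hearts and at 272, 59.0 and 234 in the MI hearts. Gm15590 was at 14.4 to 16.2 against 79.4, 19.2 and 64.5. How the deposited counts treated fragments that match several copies is not given in the sources used here. Summed over Ftl1 and its 6 copies, the level was 87.8, 91.6, 52.7 and 87.4 FPKM in the sham hearts against 457, 117 and 386 in the MI hearts, 4.01 times as high. On that sum, which was chosen after seeing the data, the log2 fold change was 1.802 and the ratio of Fth1 to the sum differed by -1.63 with the same exact permutation p of 0.0571. The groups did not overlap on the sum either, and MI replicate 2, at 117, was the nearest to the highest sham heart, at 91.6. On the sum the light chain made up 40.04% to 52.8% of ferritin FPKM in the sham hearts against 83.1%, 57.04% and 80.9% in the MI hearts, so its share of ferritin RNA in either group depends on how the copies are counted. Ftl1 also shares 355 exon bases with Gm10252 on the opposite strand and 109 with Gm22133 on its own. For Fth1, the single such copy held no fragments.

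**Figure D3:**
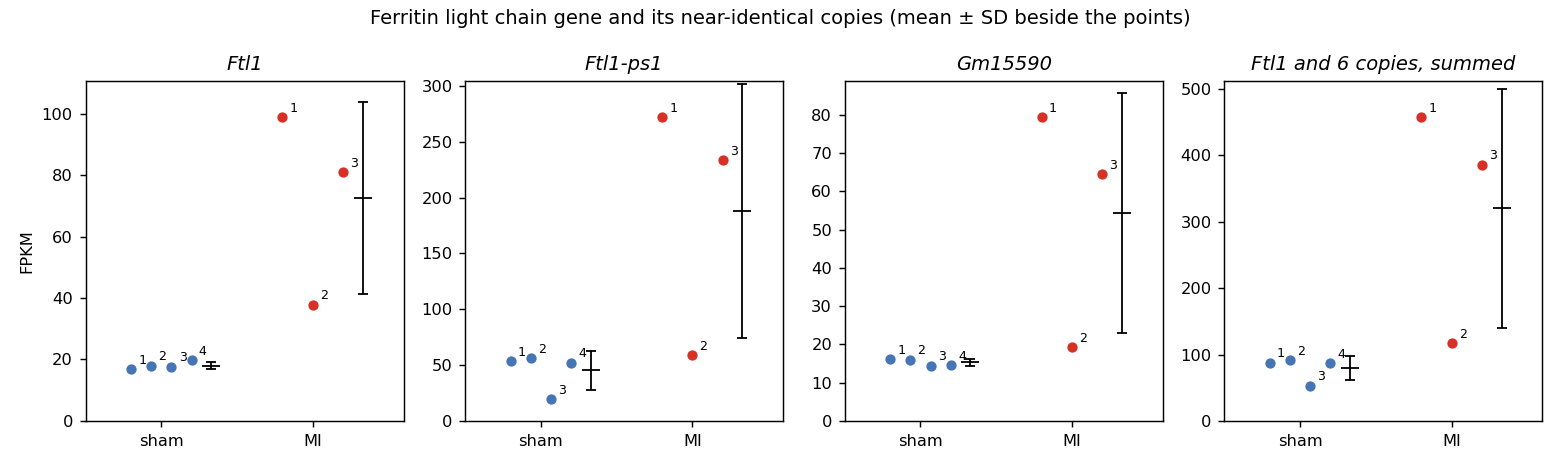
FPKM of Ftl1, of its 2 most abundant near-identical copies and of the sum of Ftl1 and all 6 copies, with y axes from 0, for 4 sham (blue) and 3 MI hearts (red), replicate numbers beside the points and mean ± SD to the right. MI replicates 1 and 3 stand far above the sham hearts in every panel, and MI replicate 2 is at 37.8 for Ftl1 alone and at 117 for the sum, against sham maxima of 19.7 and 91.6.

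The other 2 importers overlapped between the groups. Slc11a2, the divalent metal transporter that carries iron out of endosomes, was at 4.00, 4.24, 4.32 and 4.00 FPKM in the sham hearts and at 4.62, 3.56 and 4.16 in the MI hearts, a log2 fold change of -0.01 (standard error 0.10) with an adjusted limma p of 0.930. Slc39a14, a zinc transporter family member that also takes up iron not bound to transferrin, was at 5.40, 5.86, 6.07 and 6.26 against 9.07, 5.58 and 6.50, a log2 fold change of 0.20 (standard error 0.15) with an adjusted limma p of 0.314. The value of Slc39a14 moved with single hearts: it was 0.03 without MI replicate 1 and 0.33 without MI replicate 2. In both genes, MI replicate 2 lay within or below the sham range, and MI replicate 1 was the highest of all hearts. Slc11a2 shares 402 exon bases with Gm5475 on the opposite strand, which had at most 1 fragment in any heart.

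Among 20 uptake genes other than Tfrc, 11 were tested, of which 3 were higher by the criterion (27.3%, against 17.8% of all tested genes) and 0 lower (against 4.8%), or 4 and 0 without MI replicate 2 (against 35.1% and 8.42%). Trf, which encodes transferrin itself, was at 6.39 to 7.34 FPKM in the sham hearts and at 39.0, 9.81 and 31.9 in the MI hearts (log2 fold change 1.62, standard error 0.41). Lrp1, a large endocytic receptor that also takes up heme bound to hemopexin, was at 8.33 to 9.11 against 34.0, 10.96 and 31.7 (1.31, standard error 0.35). For Steap4, a metalloreductase, the range of 10.7 to 12.4 overlapped with 29.2, 12.3 and 17.8 (0.64, standard error 0.25). The adjusted limma p was 0.108, 0.108 and 0.115. Steap4 no longer met the criterion when any single mouse other than MI replicate 2 was left out (0.33 without MI replicate 1). These 3 genes were highest in the 2 MI hearts in which the fibroblast and macrophage sums were high, and the part of those cells in the values was not tested. Tfr2, the second transferrin receptor, was at no more than 0.140 FPKM in any heart and was not tested.

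Slc40a1, the sole known iron exporter, was at 1.55, 1.77, 1.55 and 1.84 FPKM in the sham hearts and at 2.13, 2.03 and 2.29 in the MI hearts. The MI hearts were close together and all above the sham hearts, with a log2 fold change of 0.24 (standard error 0.09), an unadjusted limma p of 0.0291 and an adjusted p of 0.111. That is 0.03 above the median gene, and after quantile normalization it was -0.0039. All 3 tested export genes of 6 listed, the ferroxidase gene Cp and the transporter gene Abcg2 besides Slc40a1, had no overlap between groups, against 16.1% of all tested genes, and stayed under the fold line of the criterion. With TPM, 2 of the 3 were higher by the criterion, against 32.7% of all tested genes. Cp was at 4.67 to 5.40 against 8.18, 6.09 and 6.78 FPKM.

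The genes of both iron regulatory proteins overlapped between the groups. Aco1, which is an aconitase when it holds an iron-sulfur cluster and binds RNA when it does not, was at 10.3, 9.69, 9.83 and 8.77 FPKM in the sham hearts and at 10.99, 9.14 and 11.4 in the MI hearts (log2 fold change 0.11, standard error 0.11, adjusted limma p 0.436). Ireb2, which is degraded when iron is plentiful, was at 4.55, 4.79, 4.90 and 4.51 against 7.23, 4.44 and 6.37 (0.28, standard error 0.15, adjusted limma p 0.175). In both, MI replicate 2 was inside or just below the sham range. The log2 ratio of Aco1 to Ireb2 differed by -0.17 (exact two-sided permutation p = 0.229, also 0.229 adjusted over 3 ratios). Without MI replicate 2 the log2 fold change was 0.20 for Aco1 and 0.45 for Ireb2, against 0.33 for the median gene. The adjusted limma p was 0.0418 for Aco1 and 0.000897 for Ireb2, in a fit where 71.7% of all tested genes were under 0.05. RNA levels do not show the RNA-binding activity of either protein.

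Hamp, the gene of hepcidin, was close to absent at this depth, with 3, 1, 0 and 0 fragments in the sham hearts against 0, 0 and 2 in the MI hearts, and was not tested. Of the 12 genes of iron sensing and the hepcidin axis 7 were tested, with 0 higher and 1 lower by the criterion (against 17.8% and 4.8% of all tested genes), or 1 and 1 without MI replicate 2 (against 35.1% and 8.42%). The lower one was Hjv, which encodes hemojuvelin, a BMP co-receptor of striated muscle and liver. Its FPKM was 119, 108, 103 and 119 in the sham hearts against 45.1, 84.7 and 47.4 in the MI hearts, without overlap (log2 fold change -0.97, standard error 0.22, adjusted limma p 0.108). The lower cardiomyocyte marker sums of MI replicates 1 and 3 moved with it, and their part was not tested. Bmp6, a BMP ligand of the axis, was at 5.16 to 6.22 against 6.79, 6.78 and 10.1 FPKM, also without overlap, and below the fold line.

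Hmox1, the inducible heme oxygenase that frees iron from heme, had the widest spread among the MI hearts relative to its level of the tested members. It was at 4.45, 3.92, 4.86 and 4.62 FPKM in the sham hearts and at 39.5, 4.94 and 27.2 in the MI hearts. MI replicates 1 and 3 were far above every sham heart, whereas MI replicate 2 exceeded the highest of them only slightly. The log2 fold change was 1.797 (standard error 0.59), with an unadjusted limma p of 0.0180 and an adjusted p of 0.108, so only the second criterion was met. That call was lost without MI replicate 1 (1.25, unadjusted limma p 0.0624) and without MI replicate 3 (1.51, unadjusted limma p 0.0653). Without MI replicate 2 the log2 fold change was 2.63 with an adjusted limma p of 1.25e-05. The log2 ratio of Hmox1 to Hmox2, the constitutive enzyme, differed by 1.39 (exact two-sided permutation p = 0.229, also 0.229 adjusted over 3 ratios), and the groups overlapped. Hmox2 itself had a log2 fold change of 0.41 (standard error 0.16, adjusted limma p 0.113). Its transcripts match Ppp4r2 over 257 bases at 99.61% identity, and Ppp4r2 was at 3.01 to 4.58 FPKM in the 7 hearts. The summed macrophage, fibroblast and erythroid markers were also highest in MI replicates 1 and 3, and their part in the Hmox1 values was not tested.

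Among 15 heme genes 13 were tested, of which 2 were higher and 2 lower by the criterion (15.4% each, against 17.8% and 4.8% of all tested genes), or 4 and 2 without MI replicate 2 (against 35.1% and 8.42%). Besides Hmox1 the higher one was Blvrb, a biliverdin reductase, at 1.56 to 2.19 FPKM in the sham hearts against 4.32, 2.13 and 4.37 in the MI hearts, and it missed the criterion without MI replicate 1 (unadjusted limma p 0.0531) or 3 (0.0564). The lower ones are the enzymes of the first 2 steps of heme synthesis. Alas1, the first and rate-limiting enzyme outside erythroid cells, was at 19.4, 17.0, 16.7 and 18.8 against 8.49, 12.2 and 10.9 FPKM (log2 fold change -0.73, standard error 0.13, adjusted limma p 0.108). Alad, the second, was at 16.4 to 19.9 against 9.99, 16.1 and 11.6 (-0.56, standard error 0.16, adjusted limma p 0.108), and at -0.42 without MI replicate 1 it missed the fold line. Neither overlapped between groups, and Alas1 was low in MI replicate 2 as well. The cardiomyocyte marker sum was also lower in MI replicates 1 and 3, and its part in both genes was not tested. The erythroid first enzyme Alas2 was at 1.59 to 3.02 against 10.8, 2.28 and 3.84 and moved with the globin sums. The plasma scavengers Hpx and Hp were too low in most hearts to be tested. Hp, which encodes haptoglobin, a binder of free hemoglobin, was at 0.0718 to 0.358 FPKM in the sham hearts and at 72.8, 0.428 and 82.6 in the MI hearts, and was singled out after its values were seen.

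All 17 genes of mitochondrial iron use, most of them for iron-sulfur cluster assembly, were tested. By the criterion 1 was higher and 1 lower (against 17.8% and 4.8% of all tested genes), and 2 were higher and 8 lower without overlap between groups, against 16.1% and 9.0% of all tested genes. The lower one by the criterion was Isca1, a cluster assembly factor, at 9.50 to 10.1 against 6.42, 8.68 and 3.40 FPKM (log2 fold change -0.66, standard error 0.24). The higher one was Slc25a28, a mitochondrial iron importer, at 2.85 to 3.51 against 6.52, 3.83 and 4.62 (0.51, standard error 0.16), with an adjusted limma p of 0.108, and of 0.111 for Isca1. Both calls rested on few hearts: Isca1 was at -0.34 without MI replicate 3 and missed the p of the criterion without any 1 sham heart, and Slc25a28 was at 0.33 without MI replicate 1 and missed the fold line also without sham replicate 2 or 4. The median of the 17 was -0.23, against 0.21 for all tested genes, and it was -0.05 with TPM, where every library has the same total, and -0.49 after median log-ratio scaling, where 0 were higher and 8 lower by the criterion (against 8.92% and 10.8% of all tested genes). Without MI replicate 2 these counts were 1 and 8 (against 35.1% and 8.42%). The cardiomyocyte marker sum was below the sham range in MI replicates 1 and 3 and within it in MI replicate 2. The 8 genes lower without overlap were below every sham heart in MI replicate 2 as well. The part of cardiomyocytes in these values was not tested.

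**Figure D4:**
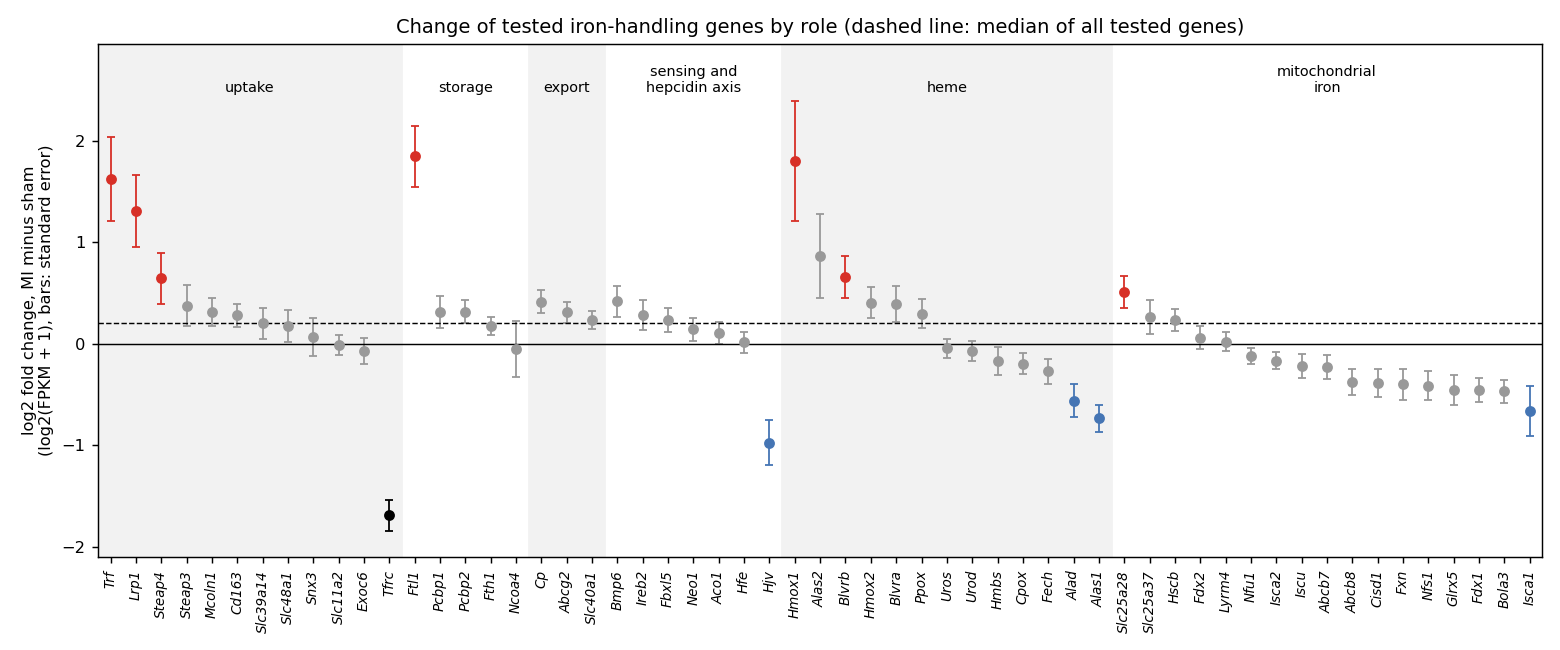
The log2 fold change of MI minus sham, on the log2(FPKM + 1) scale, for the tested iron-handling genes ordered by role and size, with bars of 1 standard error. Red points were higher and blue points lower by the criterion of an unadjusted p under 0.05 and a change over 0.5, grey points were neither, Tfrc is black because it was not tested, and the dashed line is the median of all tested genes at 0.21. Ftl1, Hmox1, Trf and Lrp1 are the highest and Tfrc at -1.69 the lowest, and most genes of mitochondrial iron lie below the dashed line.

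Over the 6 roles together, 76 genes other than Tfrc were listed and 56 tested. By the criterion 7 were higher (12.5%, against 17.8% of all tested genes) and 4 lower (7.14%, against 4.8%). There was no overlap between groups for 13 higher and 11 lower genes, against 16.1% and 9.0% of all tested genes. After median log-ratio scaling the split was 4 higher and 12 lower (8.92% and 10.8% of all tested genes), and with TPM 14 higher and 2 lower (32.7% and 2.59%), so the balance of the 2 directions depended on the scaling. At an adjusted limma p under 0.05, 0 of the 56 were called. An unadjusted limma p under 0.05 was reached by 25 (44.6%), against 39.3% of all tested genes. Without MI replicate 2, 41 were called (73.2%, against 71.7% of all tested genes), and by the criterion 12 were higher (21.4%, against 35.1%) and 11 lower (19.6%, against 8.42%).

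Some other transcripts known or proposed to hold an iron-responsive element were also examined. Counting the members on that list other than Tfrc, 8 were tested. Ftl1 was the only 1 of them higher by the criterion (12.5%, against 17.8% of all tested genes). Epas1, encoding HIF-2α, was at 77.4 to 85.3 against 55.9, 87.3 and 60.8, and Cdc42bpa, with a proposed 3′ element, at 1.24 to 1.78 against 1.78, 1.78 and 1.83. Cdc14a was at no more than 0.359 FPKM and was not tested.

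Among 8 genes known to act on Tfrc transcription or on Tfrc RNA, some raising and some lowering its level, 7 were tested. By the criterion 3 were higher (against 17.8% of all tested genes), or 1 after median log-ratio scaling (against 8.92%). Zc3h12a, which encodes Regnase-1, an endonuclease that cuts the Tfrc 3′ UTR, was at 1.42 to 2.00 FPKM in the sham hearts and at 5.75, 1.67 and 3.82 in the MI hearts (log2 fold change 0.70, standard error 0.29). Zfp36, encoding tristetraprolin, which promotes decay of Tfrc and other transcripts, was at 5.19 to 7.12 against 11.7, 7.27 and 12.2 (0.60, standard error 0.19). Hif1a, encoding the oxygen-regulated subunit of HIF-1, an activator of Tfrc transcription, was at 8.30 to 9.58 against 30.3, 8.48 and 21.5 (0.94, standard error 0.36). The adjusted limma p was 0.121, 0.108 and 0.115. None of the 3 met the criterion without MI replicate 1 or without MI replicate 3, and Zc3h12a and Hif1a did not without any 1 sham heart either. All 3 were highest in MI replicates 1 and 3, as were the macrophage and fibroblast marker sums, and the part of those cells in the values was not tested. Whether any of these genes bears on the level of Tfrc was not tested. Rc3h1, encoding Roquin-1, ranged from 1.08 to 4.73 in the sham hearts and from 0.986 to 5.66 in the MI hearts. Myc, an activator of Tfrc transcription, was at 0.247 to 0.302 against 1.62, 0.505 and 2.31 and was not tested.

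The genes whose log2(FPKM + 1) followed that of Tfrc most closely over the 7 hearts were Mrps7 (Pearson's r = 0.98), ENSMUSG00000120025 (0.98), Smim11 (0.98), Mrpl22 (0.98) and Gdpd5 (0.98). These correlations describe 7 hearts in 2 separate groups that share their libraries, and carry no test. Their differences were smaller than that of Tfrc: Mrps7 was at 26.1 to 27.7 FPKM in the sham hearts against 22.7, 23.1 and 22.6 in the MI hearts, and Gdpd5 at 3.21 to 3.42 against 2.40, 2.33 and 2.43. The log2 fold changes of the 5 ran from -0.88 for ENSMUSG00000120025, which rested on 9 to 30 fragments, to -0.12 for Mrpl22.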

How the data were processed

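Myocardial RNA of 4 sham and 3 MI mice was analysed, grouped by the treatment label. The authors deposited FPKM values, and all 7 columns were used (0 left unused). The submitters' processing notes name CASAVA 1.8, HISAT2, SAMtools 1.3.1, edgeR and mm10. The annotation, the counting program and its use of strand are not given in the sources used here. That the unit is FPKM was read from the values: for 30502 of 30504 genes above 0, all hearts came within 0.05 of whole fragments at 1 gene length. These fragments gave the depths, and counting error is part of the SD between hearts.

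Identifiers were matched to GENCODE M21 on GRCm38, which held 52073 of 56980 (91.4%), and 130 of 131 listed symbols were found. The filter kept genes that reached an FPKM of 1 in 3 or more mice, and these went into limma 3.58.1 in R 4.3.3 (lmFit, eBayes with trend) on log2(FPKM + 1), Benjamini-Hochberg adjusted over all 11431. A pseudocount of 1 understates changes of low genes. The second criterion, 0.05 unadjusted and 0.5 in log2, follows the lines of the study's volcano plot. Ratios of 2 genes were tested by exact permutation, the smaller tail being doubled. Near-identical copies were found by aligning transcripts with minimap2 2.31. The settings varied were the pseudocount (0.1), the filter (none, or on the mean), scaling by TPM, quantiles or the median log-ratio, leaving out mitochondrial genes, no trend, sample weights, voom weights, a replicate block and each mouse left out. The permutations ran in Python 3.11.15 with NumPy 2.4.6 and the figures used matplotlib 3.10.9. The tests were tested on simulated data.

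The members and gene lists were chosen with earlier results of these data known. Named genes are the members, up to 3 further genes per role and direction that met the second criterion, the hairpin transcripts (1 of which is not reported here), the Tfrc regulators and the 5 genes most correlated with Tfrc. Whether mice were processed together is not given in the sources used here.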

Additional observations from a re-analysis of the deposited data

Results flagged for a closer look

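In total 3 sets of sham values had 1 heart far from the other 3 by Dixon's test, the gap to the nearest heart being divided by the whole range and compared with the 95% critical value. For Ftl1-ps1 the quotient was 0.891, because sham replicate 3 was at 19.6 FPKM and the others at 52.0 to 56.0. For the sum of Ftl1 and its copies it was 0.892, with the same heart at 52.7 and the others at 87.4 to 91.6. Ftl1 itself was at 17.7 in that heart, within the range of the others. For Gm10252 the quotient was 0.864, with sham replicate 2 at 0.942 FPKM, from 17 fragments, and the others at 0.410 to 0.482. Chance flags about 1 in 20 sets, or 2.20 of the 44 examined. The copies were added to them after seeing the data.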

How the results depend on the processing

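The count of iron-handling genes higher by the criterion was 7 of 56, and it was 14 with TPM, 4 after quantile normalization, 4 after median log-ratio scaling, 13 with sample weights and 4 to 12 with 1 mouse left out. The count lower was 4, and it was 2 with TPM, 12 with quantile normalization, 12 with median log-ratio scaling, 10 with mitochondrial genes left out, 7 with sample weights and 3 to 11 with 1 mouse left out. The count at an adjusted limma p under 0.05 was 0, and it was 47 with sample weights and 0 to 41 with 1 mouse left out, the highest being without MI replicate 2. Over all tested genes these shares were 87.1% with sample weights and 71.7% without MI replicate 2, near the 83.9% and 73.2% of the iron-handling genes. The sample weights put 437 on MI replicate 3 and 0.0217 on MI replicate 2, so that fit rests on 1 MI heart. The difference of Tfrc was -1.94 after median log-ratio scaling, and -1.78 to -1.62 with 1 mouse left out. Signs turned for Slc40a1 with quantile normalization (-0.0039), for Fth1 with quantile normalization (-0.0173) and median log-ratio scaling (-0.12), for Aco1 with quantile normalization (-0.14), median log-ratio scaling (-0.16) and without mitochondrial genes (-0.0108), and for Slc39a14 with quantile normalization (-0.0738) and median log-ratio scaling (-0.0585). For Slc11a2, at -0.01, they turned with TPM (0.17), sample weights (0.0004), without sham replicate 3 (0.005) and without MI replicate 2 (0.0682), in a range of -0.0826 to 0.0682 with 1 mouse left out. The cause of these changes was not tested. With 1 mouse left out, the log2 ratio differed by -2.06 to -1.42 for Fth1 to Ftl1, by -0.26 to -0.08 for Aco1 to Ireb2 and by 0.72 to 2.27 for Hmox1 to Hmox2.

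The sample names share numbers. Deviations from the group means correlated at 0.07, -0.02 and -0.08 between same-numbered hearts, and at -0.09 to 0.08 between differently numbered ones. With so few hearts per group these values cannot tell whether the numbers pair the mice. With a replicate block 5 iron-handling genes were higher and 4 lower by the criterion, 0 at an adjusted limma p under 0.05, and the ratios differed by -1.73, -0.20 and 1.45. With 3 MI mice, the SD of a gene was 0.28 at the median in MI and 0.085 in sham on the log2 scale, which limits what could be called. Of the named genes that met the criterion, Ftl1, Trf, Lrp1, Hjv and Alas1 met it under every setting run, while Hmox1 lost it under 2 of 18 settings, Alad 2, Blvrb 4, Isca1 6, Zfp36 6, Hif1a 6, Slc25a28 8, Steap4 9 and Zc3h12a 11. Besides single mice, the settings were TPM for Alad (-0.39) and Isca1 (p 0.0577), quantile and median log-ratio scaling for Blvrb (0.39 and 0.44), Slc25a28 (0.23 and 0.27), Steap4 (0.41 and 0.36), Zc3h12a and Zfp36, the replicate block for Steap4, Slc25a28, Zc3h12a and Zfp36, mitochondrial genes left out for Slc25a28 and Zfp36, sample weights for Slc25a28, and no filter and voom weights for Zc3h12a.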
